A study of Equus caballus with 2 samples.

Results

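Glycolysis splits glucose into pyruvate in the cytosol through a chain of enzymes, and lactate dehydrogenase then turns pyruvate into lactate while pyruvate dehydrogenase passes it to the mitochondria. The chain is controlled mainly at the hexokinase, phosphofructokinase and pyruvate kinase steps, and several of its genes respond to low oxygen through hypoxia-inducible factor. Fibroblasts that turn into matrix-producing myofibroblasts are known for a high use of glucose, which makes these enzymes of interest in fibrosis of the endometrium. The 10 genes described here were taken by their symbols from the 21426 genes listed for both libraries. They are the hexokinases *HK1* and *HK2*, the platelet-type phosphofructokinase *PFKP*, its activator enzyme *PFKFB3*, aldolase A (*ALDOA*), phosphoglycerate kinase 1 (*PGK1*), enolase 1 (*ENO1*), the muscle-type pyruvate kinase *PKM*, lactate dehydrogenase A (*LDHA*) and pyruvate dehydrogenase kinase 1 (*PDK1*). All 10 were found once each, and all 10 exceeded a mean of 10 CPM, so none was lost to a filter on low values. A UMI is a tag that marks 1 captured RNA molecule, and CPM is the number of UMIs of a gene per 1000000 UMIs of the kept cells of a library.

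Equine endometrial fibroblasts of 4 mares were cultured on hydrogels coated with collagen, kept without serum in 0.1% BSA for 24 h, and in that time given either nothing further (control) or 10 ng/ml human recombinant TGF-β1. Cells of the 4 mares were pooled within each treatment and made into 1 library of single cells per treatment. A library treated with MFGE8 was not analysed here. The cells were passaged before use, and a cell was not assigned to its mare here, so mare and cell state cannot be told apart within a library.

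The control library held 4384 barcodes, of which 3865 passed the limits (20000 UMIs and 3500 genes as minimum, mitochondrial UMIs under 4%). The TGF-β1 library held 5124 barcodes, of which 4513 passed. The kept cells carried 210497250 UMIs in the control and 219731144 UMIs after TGF-β1. The median cell had 50313 UMIs in the former and 43142 in the latter. The libraries shared 6 barcodes, 2 of them among kept cells. With 1 library per condition there is no replicate check, no test was made, and each interval below is an exact 95% interval that covers counting error only.

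The fibroblast label was checked against fixed markers. All 10 fibroblast markers exceeded 1 CPM in both libraries, led by *COL1A1* with 5608 CPM in the control and 6376 CPM in the TGF-β1 library. They were not level between the libraries, since 5 were higher and 5 lower and 3 differed by more than 2-fold, namely *FAP* (67.9 and 211 CPM), *PDGFRA* (50.5 and 16.7 CPM) and *THY1* (216 and 87.5 CPM). *VIM* went from 4399 to 2240 CPM. Of 9 epithelial markers analysed, 7 had a mean below 1 CPM, among them the defining genes *EPCAM* at 0.0048 and 0.014 CPM and *CDH1* at 0.029 and 0.018 CPM. The epithelial list summed to 134 CPM in the control and 12.4 CPM in the TGF-β1 library, led by the keratin *KRT8* in the control and by *KRT7* in the TGF-β1 library. The 9 endothelial markers summed to 13.8 and 24.2 CPM, mostly from the transcription factor *ERG*, while *PECAM1* stood at 0.043 and 0.036 CPM. Immune markers summed to 56.8 and 53.0 CPM with *CD68* as the most abundant, and *PTPRC* was at 0.0048 CPM in the control and at 0 in the TGF-β1 library. Smooth muscle and pericyte markers summed to 1120 and 1658 CPM, led by *DES* in the control (646 and 569 CPM) and by *ACTG2* in the TGF-β1 library (349 and 965 CPM), with *KCNJ8* at 0 in both. Cycling markers summed to 84.8 and 57.6 CPM, led by *UBE2C*. The ratios below were also computed without cells that held epithelial-type keratins and without cycling cells. The part of the smooth muscle genes was not tested.

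After 24 h of TGF-β1 the glycolysis enzymes as a group stood almost where they stood in the control. Together the 10 genes amounted to 4269 CPM without and 4052 CPM with TGF-β1 (log2 ratio -0.075, -0.080 to -0.071). None of the 10 differed by more than 2-fold between the libraries, against 339 of the 7658 genes (4.43%) whose mean reached 10 CPM. None differed by more than 1.5-fold either, against 970 of the 7658 (12.7%). The median log2 ratio of the 10 was -0.016, beside 0.0082 over the 7658 genes, and the median absolute log2 ratio was 0.13, beside 0.20. The direction was split within the list. For 5 members the counting interval lay below 0, as it did for 3221 of the 7658 genes (42.1%), and for 4 it lay above 0, as it did for 3410 genes (44.5%). At this depth a counting interval that leaves out 0 is thus the common case for any gene, and it says nothing of the spread between cultures. Counts of higher and lower genes in the lists below are to be read beside these shares. Those lists take genes of at least 1 CPM, while the shares are for at least 10 CPM.

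The hexokinases trap glucose in the cell by phosphorylating it. *HK1*, the form most tissues use, was measured at 88.8 CPM in the control and 86.2 CPM in the TGF-β1 library (log2 ratio -0.042, -0.072 to -0.013). *HK2*, the form that insulin and low oxygen are known to raise, was measured at 22.6 and 21.5 CPM (-0.070, -0.13 to -0.011). Neither hexokinase moved by as much as the typical gene, and both ratios lay above 0 in cells of 30000 to 60000 UMIs, where *HK1* had a log2 ratio of 0.074. The median over genes of at least 10 CPM was 0.036 in these cells, against 0.0082 in all kept cells. With each cell thinned to 20000 UMIs, *HK2* was seen in 32.7% of control cells (31.2% to 34.2%) and in 30.5% of TGF-β1 cells (29.2% to 31.9%), and without thinning in 57.5% and 53.9%.

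The phosphofructokinase step held the largest difference of the list. *PFKP*, which commits fructose 6-phosphate to the pathway, was measured at 60.7 CPM in the control and 85.1 CPM in the TGF-β1 library (0.49, 0.45 to 0.52). Each alternative processing kept this direction, with log2 ratios from 0.48 to 0.60, and its ratio exceeded that of 91.4% of the 7658 genes. The share of thinned cells with a *PFKP* UMI was 65.1% (63.5% to 66.6%) in the control and 78.2% (76.9% to 79.4%) in the TGF-β1 library, and 88.9% and 93.6% without thinning. *PFKFB3* makes fructose 2,6-bisphosphate, the strongest activator of phosphofructokinase. It stood at 30.2 CPM in the control and 33.9 CPM in the TGF-β1 library (0.17, 0.12 to 0.21). Other genes of this step, named after their values were seen, were split. *PFKFB4*, which makes the same activator as *PFKFB3*, went from 4.89 CPM in the control to 11.4 CPM in the TGF-β1 library (1.22, 1.11 to 1.32), while 3 others were lower. *PFKL*, as abundant as *PFKP* in the control, went from 61.7 to 51.9 CPM (-0.25), *PFKM* from 9.02 to 6.89 CPM (-0.39) and *PFKFB2* from 5.28 to 3.98 CPM (-0.41). The step as a whole thus had no common direction. No cell type in these libraries should lack glycolysis, so the part of free RNA in such shares was not tested.

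The enzymes from aldolase to enolase were level or slightly lower. *ALDOA*, which cleaves fructose 1,6-bisphosphate, was measured at 682 CPM in the control and 598 CPM in the TGF-β1 library (-0.19, -0.20 to -0.18). *PGK1*, which makes the first ATP of the pathway, was measured at 219 and 221 CPM (0.010, -0.0083 to 0.029). It is the member whose interval held 0, although its ratio was 0.091 in cells of 30000 to 60000 UMIs. *ENO1*, the enolase of most tissues, was measured at 1439 and 1345 CPM (-0.097, -0.10 to -0.090). The largest of these differences, that of *ALDOA*, was 1.14-fold, and *ALDOA* and *ENO1* kept a negative ratio under each alternative processing.

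At the end of the chain the 3 members went different ways. *PKM*, which forms pyruvate, had the lowest ratio of the list, with 836 CPM in the control and 711 CPM in the TGF-β1 library (-0.23, -0.24 to -0.22). *LDHA*, which favours the step from pyruvate to lactate, was slightly higher, with 868 and 924 CPM (0.090, 0.081 to 0.099). *PDK1*, which switches off pyruvate dehydrogenase, was measured at 23.4 and 26.8 CPM (0.19, 0.14 to 0.25) and in 32.7% and 39.0% of thinned cells (58.9% and 64.0% without thinning). *PKM* was therefore lower in the TGF-β1 library, while *LDHA* and *PDK1* were higher. Gene counts at the 3′ end do not separate the M1 and M2 splice forms of *PKM*. Mammalian genomes carry processed copies of several of these genes. How reads shared with such copies were counted was not examined here. The absolute levels of *PGK1*, *ENO1*, *LDHA*, *ALDOA* and *GAPDH* are to be read with that limit.

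**Figure D1:**
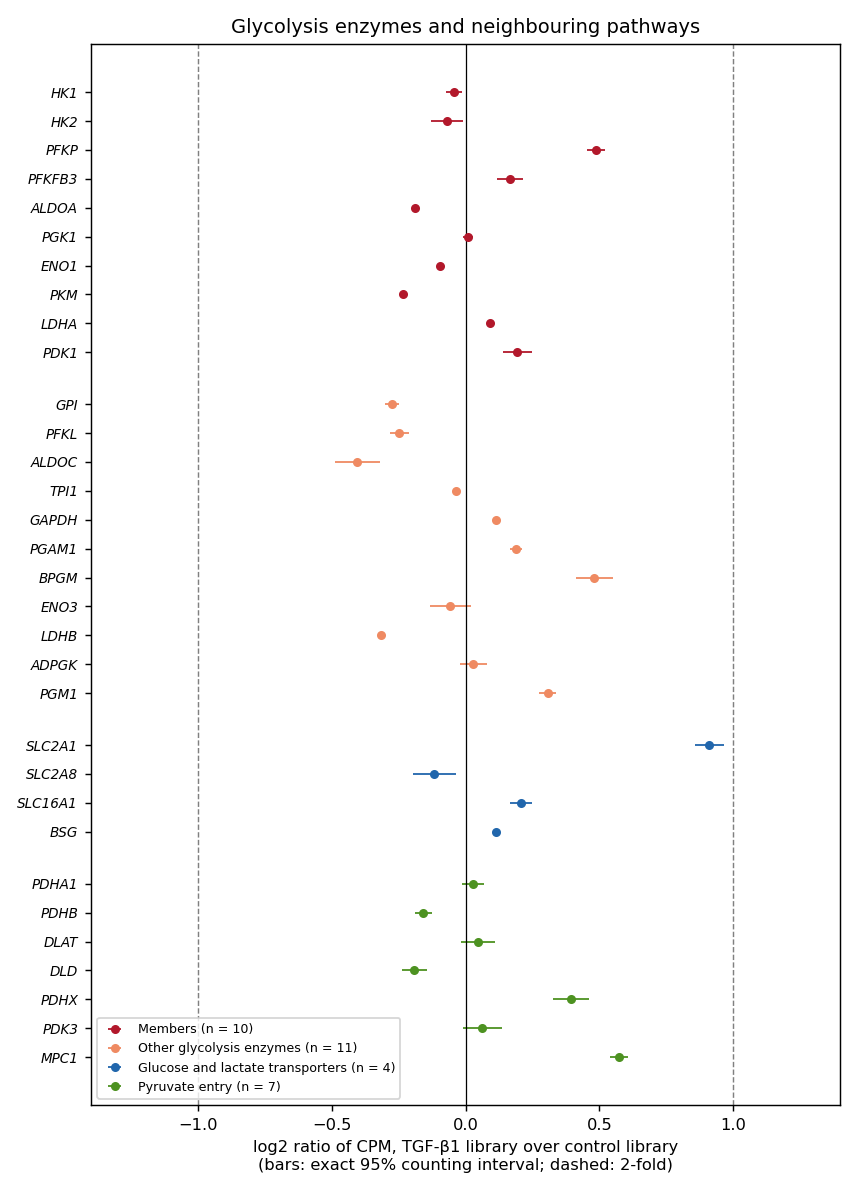
Log2 ratio of CPM, TGF-β1 library over control library, for the 10 members and for the genes of 3 neighbouring lists whose mean reached 10 CPM; each row is a gene, points are ratios of summed UMIs and bars are exact 95% counting intervals. The members lie between -0.23 and 0.49, and *SLC2A1* lies at 0.91.

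Of 27 further glycolysis genes in a fixed list, 17 had a mean of at least 1 CPM. Their median log2 ratio was -0.057, with 5 higher and 8 lower by the counting interval and 4 whose interval held 0. Phosphoglucose isomerase (*GPI*) went from 119 CPM in the control to 98.5 CPM in the TGF-β1 library (-0.28). The brain-type aldolase *ALDOC* was lower as well, with 12.3 and 9.30 CPM (-0.40). *LDHB*, which favours the step from lactate back to pyruvate, was measured at 653 and 525 CPM (-0.32, -0.33 to -0.30). The pair of lactate dehydrogenase genes thus went opposite ways, *LDHA* up by 0.090 and *LDHB* down.

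Triose phosphate isomerase (*TPI1*) was measured at 713 CPM in the control and 696 CPM in the TGF-β1 library (-0.035), *GAPDH* at 3583 and 3876 CPM (0.11) and the mutase *PGAM1* at 137 and 156 CPM (0.19). These genes of the lower chain did not differ by more than 1.5-fold either, and the sign of *TPI1* turned when cells with an epithelial marker were left out. *BPGM*, which makes 2,3-bisphosphoglycerate, stood at 14.1 and 19.7 CPM (0.48), and *PGM1*, which links glycogen to glycolysis, at 70.0 and 86.6 CPM (0.31). Only *PFKFB4* among the 17 differed by more than 2-fold.

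Differences larger than those of the members were also seen in *SLC2A1*, at the entry of glucose, and in the branch beside glycolysis. *SLC2A1*, the gene of the glucose carrier GLUT1, was measured at 20.2 CPM in the control and 37.9 CPM in the TGF-β1 library (0.91, 0.86 to 0.96). The same direction was found in each of 8 clusters of cells. Of the 10 transporter genes whose mean reached 1 CPM, 5 were higher, 2 lower and 3 had an interval that held 0, with a median of 0.13. The lactate carrier genes *SLC16A1* (44.0 and 50.8 CPM, 0.21) and *SLC16A3* (9.24 and 7.83 CPM, -0.24) went opposite ways, and their chaperone *BSG* stood at 539 and 583 CPM (0.12). The intracellular glucose carrier *SLC2A8* was measured at 12.1 and 11.2 CPM (-0.12).

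The pentose phosphate pathway takes glucose 6-phosphate away from glycolysis to make NADPH and ribose. Transketolase (*TKT*), which returns sugars to glycolysis, went from 270 CPM in the control to 158 CPM in the TGF-β1 library (-0.78, -0.80 to -0.76). Transaldolase (*TALDO1*) went from 335 to 271 CPM (-0.31). *PGLS* differed in direction, with 244 and 298 CPM (0.29). *TKT* was lower in all 8 clusters, and its ratio lay further from 0 than that of any of the 10 glycolysis members.

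Pyruvate enters the mitochondria through a carrier and is then used by pyruvate dehydrogenase. Of 12 genes of this step whose mean reached 1 CPM, 3 were higher, 4 lower and 5 had an interval that held 0, with a median of 0.036. The carrier gene *MPC1* was measured at 55.1 CPM in the control and 81.9 CPM in the TGF-β1 library (0.57, 0.54 to 0.61), higher in all 8 clusters. The dehydrogenase subunit genes were split, with *PDHX* at 15.4 and 20.3 CPM (0.39), *DLD* at 37.0 and 32.4 CPM (-0.19) and *PDHB* at 82.8 and 74.2 CPM (-0.16). *PDK4*, a kinase of the same family as *PDK1*, was rare, at 1.11 and 0.54 CPM (-1.05, -1.38 to -0.72). *PDK2*, named after its values were seen, went from 10.8 to 8.17 CPM (-0.40, -0.49 to -0.31), and the interval of *PDK3* held 0. *PDK1* was thus the only kinase of this family that was higher by the counting interval.

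Genes known to rise in low oxygen did not move together. Of 25 such genes outside glycolysis whose mean reached 1 CPM, 11 were higher and 13 lower, with a median log2 ratio of -0.077, and 3 differed by more than 2-fold. Among the 7658 genes of at least 10 CPM, 44.5% were higher, 42.1% lower and 4.43% past 2-fold. The split in direction thus lay near that of genes at large, although the minimum levels differ. *CA12*, named after its values were seen, was 1 of the 3 past 2-fold and had a mean of 3.48 CPM. The shares past 2-fold are therefore not comparable. *VEGFA*, a growth factor for vessels, went from 23.4 CPM in the control to 48.8 CPM in the TGF-β1 library (1.06, 1.01 to 1.11). *ADM*, the vasodilator adrenomedullin, went the other way, from 195 to 33.1 CPM. *MXI1* (15.5 and 26.1 CPM, 0.75) and *RORA* (24.4 and 15.2 CPM, -0.68) differed in direction too. The median of the list turned positive, to 0.069, when genes under a mean of 10 CPM were left out, so it has no firm sign.

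Among regulators, *HIF1A* was measured at 218 CPM in the control and 179 CPM in the TGF-β1 library (-0.28) and *EPAS1* at 51.1 and 34.9 CPM (-0.55). *MYC*, which raises many glycolysis genes, was measured at 30.4 and 17.0 CPM (-0.83, -0.89 to -0.78). *TXNIP*, known to hold back glucose uptake, was measured at 20.1 and 30.6 CPM (0.60). Of the 10 regulators whose mean reached 1 CPM, 4 were higher and 6 lower. HIF activity is set mainly by protein stability, which RNA counts do not show.

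Cells of the same library differed widely in the glycolysis members. With each cell thinned to 20000 UMIs, the 10 members summed to a mean of 83.9 UMIs per control cell, with a median of 75 and a range from 37 at the 5th to 158 at the 95th percentile. TGF-β1 cells had a mean of 81.1 UMIs, a median of 74 and a range from 42 to 143. The 95th percentile was 4.27 times the 5th in the control and 3.40 times in the TGF-β1 library. The variance of the sum was 17.8 times its mean in control cells and 12.3 times in TGF-β1 cells, where counting alone gives a ratio near 1. *LDHA* ranged from 3 to 40 UMIs between the same percentiles in the control and from 5 to 39 UMIs after TGF-β1. The medians of the libraries thus lay close together, and the spread of the sum was narrower in the TGF-β1 library.

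The most abundant members, from aldolase to lactate dehydrogenase, varied together from cell to cell. Over the 45 pairs of members the mean Pearson correlation of ln(1 + UMIs) was 0.230 across the 3865 control cells and 0.163 across the 4513 TGF-β1 cells. The cells of each set share a library, a depth after thinning and a mix of 4 mares, so these values describe the libraries. *ALDOA*, *PGK1*, *ENO1*, *PKM* and *LDHA*, grouped after the correlations were seen, formed a block. Their 10 pairs ranged from 0.444 to 0.648 in the control with a mean of 0.568, and from 0.340 to 0.590 in the TGF-β1 library with a mean of 0.466. *ENO1* with *LDHA* was the closest pair in both libraries.

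*PDK1* came next to this block, with correlations to *ENO1* of 0.294 in the control and 0.187 after TGF-β1, and to *ALDOA* of 0.213 and 0.146. The 10 pairs among *HK1*, *HK2*, *PFKP*, *PFKFB3* and *PDK1* had a mean of 0.0993 and 0.0642. These genes of the upper chain and *PDK1* had between 0.400 and 1.69 UMIs per thinned cell in either library, against 4.27 or more for the block, and in counts this sparse a weak correlation is no finding. The correlation was lower in the TGF-β1 library for 44 of the 45 pairs. The exception was *PFKFB3* with *PDK1*, at 0.0591 and 0.0747. Over 4666 genes, correlations with the summed members ran from -0.158 to 0.155 in the control between the 5th and 95th percentile. In the TGF-β1 library they ran from -0.144 to 0.108, so the range was narrower over genes at large too. The share of lower pairs among other genes was not computed. Centring cells on the mean of their cluster left the mean at 0.216 in the control and 0.163 in the TGF-β1 library, so most of the shared variation lay within clusters.

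**Figure D2:**
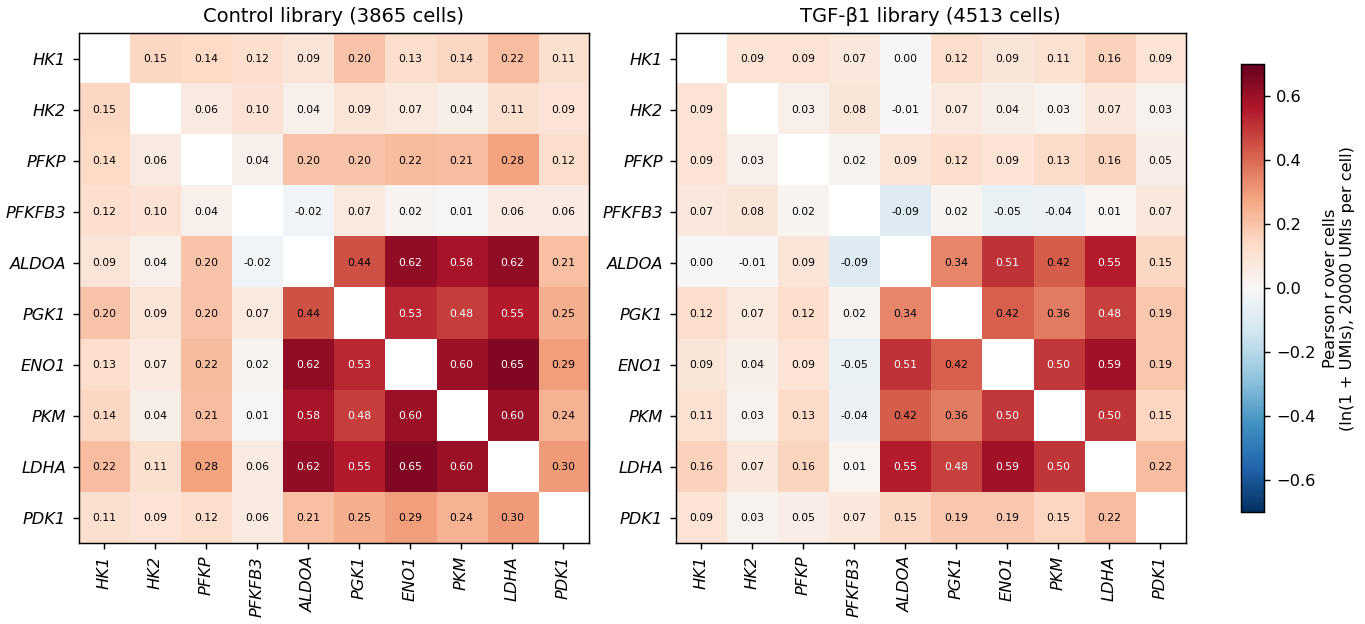
Pearson correlation across kept cells for each pair of members (rows and columns) in the control library (left, 3865 cells) and the TGF-β1 library (right, 4513 cells), from ln(1 + UMIs) with each cell thinned to 20000 UMIs; the diagonal is blank. *ALDOA*, *PGK1*, *ENO1*, *PKM* and *LDHA* form a dark block in both panels, from 0.444 to 0.648 on the left and from 0.340 to 0.590 on the right.

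The summed members were then set against each of 4666 genes with at least 0.5 thinned UMIs per cell in both libraries, a member being compared with the sum of the others. The median correlation over these genes was -0.020 in both libraries. Several glycolysis genes that were not used in the sum stood at the top, and the median over the 8 such genes in the comparison was 0.313 in the control and 0.289 in the TGF-β1 library. *GAPDH* ranked 1 of the 4666 by mean correlation, with 0.814 in the control and 0.734 in the TGF-β1 library, *TPI1* ranked 3 (0.749 and 0.665) and *PGAM1* ranked 9 (0.517 and 0.468). *GPI* ranked 23, with 0.329 and 0.292. Upper chain genes were among the closer ones too, with *PFKP* at rank 64 (0.285 and 0.155) and *HK1* at rank 136 (0.191 and 0.137). *PFKL*, named after its values were seen, ranked 29 (0.298 and 0.285). *PGM1* had weak correlations (0.0144 and 0.0176, rank 1490), and so did the member *PFKFB3* (0.0389 and -0.0326, rank 1768). *ADPGK*, named after its values were seen, had weak ones too (-0.0193 and -0.0239, rank 2352). *PFKFB3* and *ADPGK* lay in the sparse range of the upper chain and *PGM1* near its upper edge, where a weak correlation is no finding. *LDHB*, abundant as it was, had only 0.0269 and 0.135, so the lactate dehydrogenase genes also differed in how they followed the rest of the chain.

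Some low-oxygen genes followed the members from cell to cell, and they were singled out after their values were seen. *BNIP3*, which marks mitochondria for removal, ranked 5 with 0.682 in the control and 0.628 in the TGF-β1 library. *P4HA1*, a collagen prolyl hydroxylase, ranked 10 with 0.436 and 0.327, and *FAM162A* ranked 16 with 0.398 and 0.313. *ADM* had 0.0492 and 0.0648, although it held the largest difference of the list between the libraries. The median over the 15 low-oxygen genes abundant enough for this comparison was 0.118 and 0.0707, and that of 18 genes of the TCA cycle 0.0172 and 0.0183. The 2 transporter genes that were abundant enough had a median of 0.128 and 0.110, and the 2 gluconeogenesis genes one of 0.111 and 0.0622. *SLC16A3* was too rare for the ranking and had 0.388 and 0.352. The members from aldolase to lactate dehydrogenase, this lactate carrier gene and a few low-oxygen genes thus varied together. *MDH2*, the most abundant TCA cycle gene, had 0.234 and 0.123 (rank 115). The other TCA cycle genes had fewer UMIs per thinned cell than any gene of the block of members from *ALDOA* to *LDHA*. Many were as sparse as the upper chain, where a weak correlation is no finding.

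Outside every fixed list, the genes most like the summed members included *PRELID1* (0.420 in the control and 0.307 in the TGF-β1 library), *SERPINH1* (0.437 and 0.289), *PRDX4* (0.428 and 0.294), *ACTA2* (0.429 and 0.279), *TMSB10*, *ACTB*, *P4HB*, *PPP1R14B* and *PTGES*. *SERPINH1* encodes a collagen chaperone, *ACTA2* the smooth muscle actin that marks myofibroblasts, and *P4HB* a subunit of prolyl 4-hydroxylase. Of the genes named, *PTGES* was higher in correlation in the TGF-β1 library than in the control, at 0.334 against 0.278. The 5 genes at the other end were *ITGB5* (-0.259 and -0.292), *SLIT3* (-0.322 and -0.217), *PLXDC2*, *TFPI* and *PAPPA*. Related genes of the fixed lists, chosen after their values were seen, did not all follow the members as closely, with the prolyl hydroxylase *P4HA2* at 0.118 and 0.0707 and the actin *ACTG2* at 0.301 and 0.0824.

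The sum of the members had a correlation of 0.166 with the logarithm of UMIs per cell in the control and 0.0361 in the TGF-β1 library, and of -0.0501 and -0.0632 with the mitochondrial share. In the control it went from 67.2 thinned UMIs in the 140 cells of 20000 to 30000 UMIs to 88.8 in the 223 cells above 90000 UMIs. In the TGF-β1 library the corresponding bins held 77.8 and 81.1. Depth therefore went with the glycolysis level in the control and hardly at all after TGF-β1, and its part in the ratios stays untested. The median ratio of the members was 0.083 in cells of 30000 to 60000 UMIs, where the median over genes of at least 10 CPM rose as well, from 0.0082 to 0.036. The libraries also differed in depth within this window. From 30000 to 45000 UMIs the sum was 76.9 in 1146 control and 81.8 in 2172 TGF-β1 cells, and from 45000 to 60000 UMIs it was 87.0 in 1558 and 80.8 in 1114 cells. Cells with 2 or more cycling markers had a mean sum of 87.2 against 83.6 in other control cells, and 79.9 against 81.1 in the TGF-β1 library.

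In clusters of cells matched across the libraries the summed members went in different directions. The cells of both libraries were clustered together after integration, and all 8 clusters had at least 50 cells of each library. This match rests on the integration, since without it 1 of 9 clusters, with 2.85% of the cells, held 50 cells of each library, and its median ratio of the members was -0.26. The median over clusters of the members' median ratio was 0.055, and -0.013 at a resolution of 0.8, so it has no firm sign. They are called by number, since 19 of the 2000 genes used to cluster belong to the lists described here and the markers fixed for cell types named only cluster 6, a cycling-like cluster in which 11 of 11 cycling markers were more than 2-fold above the other cells. With the pathway genes left out of the genes used to cluster, 7 of 8 clusters held 50 cells of each library. The highest median ratio of the members in a cluster was then 0.24, against 0.43 in the main clustering, and 3 medians lay below 0 in both. The epithelial markers *KRT7* and *KRT8* were among the 10 leading genes of cluster 3 of the main clustering. In the control the summed members ranged from 2734 CPM in cluster 7 to 4928 CPM in cluster 3. In the TGF-β1 library they ranged from 3093 CPM in cluster 7 to 5198 CPM in cluster 5. Cluster 7 was the lowest in both libraries, with 105 control and 54 TGF-β1 cells.

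Cluster 2 (639 control and 748 TGF-β1 cells) had the second lowest sum of the members in the control, 3084 CPM, and 3517 CPM after TGF-β1 (0.19, 0.18 to 0.20). There 9 of the 10 members were higher and none was lower by the counting interval. Of the 7918 genes whose mean reached 10 CPM in this cluster, 3252 (41.1%) were higher and 2569 (32.4%) lower. *LDHA* went from 567 to 768 CPM (0.44) and *PFKP* from 49.2 to 86.3 CPM (0.81). Clusters 5 and 7 also had a higher sum after TGF-β1, with log2 ratios of 0.14 and 0.18. In cluster 7 *HK2* went from 10.2 to 21.1 CPM (1.05, 0.49 to 1.61, from 57 and 56 UMIs), the single ratio past 2-fold among 80 pairs of member and cluster.

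Cluster 3, the highest in the control, had a sum of 4928 CPM there and 4364 CPM in the TGF-β1 library (-0.18, -0.19 to -0.17). It was also the cluster richest in *KRT8*, which went from 242 to 13.2 CPM there and was lower in all 8 clusters. The cycling-like cluster 6 had 4735 and 3996 CPM (-0.24, -0.26 to -0.23), with *PKM* going from 1016 to 767 CPM (-0.41). The sum was lower in clusters 0 and 1 as well, at -0.070 and -0.15, and in cluster 4 the interval held 0. In cluster 0, however, 5 members were higher and 3 lower, with a median of 0.095, where 39.9% of 7263 genes were higher and 34.4% lower. The median of the members lay below 0 only in clusters 1, 3 and 6. Cluster 5 was high in the control (4730 CPM) and higher still after TGF-β1. Whether clusters differ in their response was not tested.

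Single members kept their direction across clusters to different degrees. *PFKP* was higher in 7 of 8 clusters by the counting interval, with log2 ratios from 0.070 in the cycling-like cluster to 0.92. *PKM* was lower in 7 of 8, from -0.41 to 0.012. *PDK1* was higher in 5 and lower in none, *PFKFB3* higher in 3 and lower in none, and *LDHA* higher in 5 and lower in 2. *HK1*, *HK2*, *ALDOA*, *PGK1* and *ENO1* were each higher in some clusters and lower in others. *PFKP* and *PKM* were therefore the members with the most constant direction, although the size of the difference varied between clusters. *SLC2A1*, *MPC1* and *TKT* kept their direction in all 8.

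**Figure D3:**
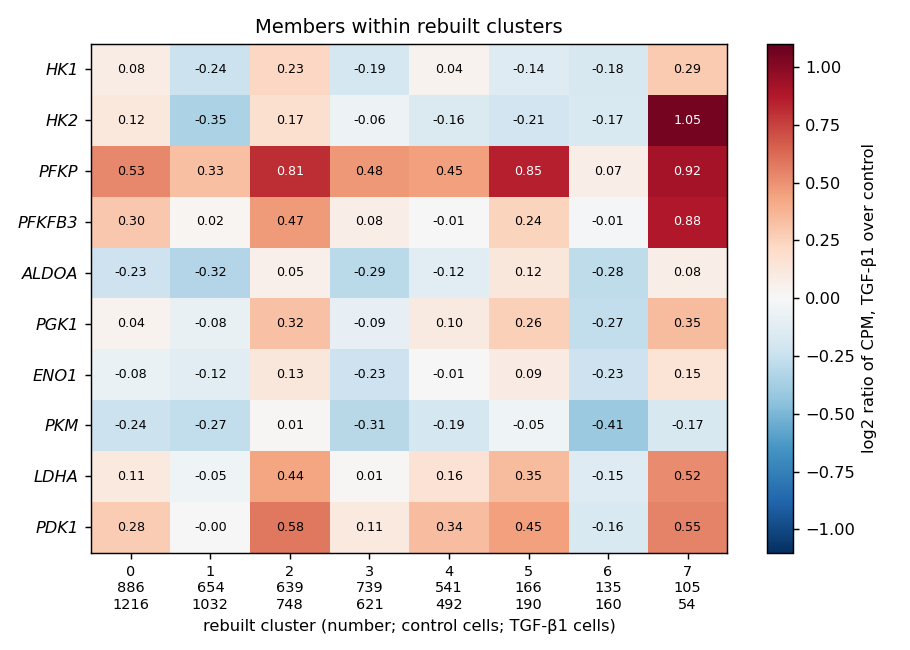
Log2 ratio of CPM, TGF-β1 over control, of each member (rows) in each of the 8 clusters (columns, with the number of control and TGF-β1 cells under the cluster number); color gives the ratio, red for higher after TGF-β1. *PFKP* is red in all clusters, from 0.070 to 0.92, and the cycling-like cluster 6 is blue for 9 of the 10 members.

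Leaving out every cell with a UMI of *EPCAM*, *CDH1*, *KRT7* or *KRT8* after thinning removed 1559 of the control and 627 of the TGF-β1 cells and left the median ratio of the members at -0.0039, with *PFKP* at 0.50 and *PKM* at -0.19. Leaving out the 340 control and 329 TGF-β1 cells with 2 or more cycling markers left it at -0.0054. Since *KRT8* itself was lower after TGF-β1 in every cluster, the first removal took unlike parts of the libraries, and the part of keratin-bearing cells in the ratios stays untested.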

How the data were processed

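The authors aligned 10x Genomics 3′ v3.1 reads to the EquCab3.0 genome and counted UMIs with Cell Ranger 7.1.0 (the file headers name 8.0.1), and they used Seurat 5 and edgeR 4.2.2. The deposited values are UMI counts per gene and barcode, not normalized. Here cells were kept by the limits given above (13 mitochondrial genes), UMIs were summed per library, and CPM and log2 ratios were computed without a pseudocount. No ratio was given where both libraries held 3 or fewer UMIs. Intervals are exact binomial (Clopper-Pearson) at 95% and take in counting error alone. Since each condition has 1 library, no test was made. For shares and correlations each kept cell was thinned to 20000 UMIs, which every kept cell reached. Doublets were not removed here; the study removed them by genotype from its reads, and leaving out cells above the 98th percentile of UMIs was an alternative. Clusters were rebuilt in Seurat 5.3.0 under R 4.3.3 (2000 variable genes, 30 dimensions, CCA integration, resolution 0.5). Other steps used Python 3.11.15, numpy 2.4.6, scipy 1.17.1 and pandas 2.3.3. The ratio step was tested on simulated data.

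The members and the gene lists were chosen with earlier results of these data known. Named genes are the 10 members, the 4 genes of each other list with the largest absolute log2 ratio at a mean of at least 10 CPM, 11 genes fixed by name (*GAPDH*, *TPI1*, *GPI*, *PGAM1*, *LDHB*, *SLC2A1*, *SLC16A3*, *HIF1A*, *PDK4*, *VEGFA*, *ADM*), and the 10 genes most and 5 least correlated with the summed members; others are named as chosen after their values were seen. Alternatives changed the cells kept, the scaling, the summing, the minimum level, the correlation and the clustering. Sequences and promoter motifs were not analysed here, and some genes that the rule takes are not reported here.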

Additional observations from a re-analysis of the deposited data

How the results depend on the processing

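No member differed by more than 2-fold under any alternative that was run, *PFKP* passed 1.5-fold only in cells of 30000 to 60000 UMIs (log2 ratio 0.60), and *PFKP*, *PFKFB3*, *LDHA*, *PDK1*, *ALDOA*, *ENO1* and *PKM* kept their sign under each of them. The number of members with an interval below 0 went from 5 to 3 without cycling cells, to 3 in cells of 30000 to 60000 UMIs and to 3 with a median-of-ratios size factor. The median ratio of the members moved to 0.083 in that depth window and to 0.015 with the mean of CPM over cells. The median over genes of at least 10 CPM moved to 0.036 in the window, from 0.0082. In the window the ratio of *HK1* turned to 0.074, that of *HK2* to 0.00059 and the median of the low-oxygen list to 0.055, and the latter stood at 0.069 for genes of at least 10 CPM. *TPI1* turned to 0.016 without cells holding an epithelial marker. The number of genes past the fold limit was 837 at a minimum of 1 CPM, 2251 with no minimum and 970 at 1.5-fold. Without thinning, the mean correlation of the members was 0.328 in the control and 0.231 in the TGF-β1 library. The median over clusters of the members' median ratio was 0.055, and it moved to -0.013 at a resolution of 0.8 and to -0.26 without integration, where 1 of 9 clusters, with 2.85% of the cells, held at least 50 cells of each library. The cause of these shifts was not tested. Of the other values under alternatives, 46 for the comparisons and 450 for single genes stayed within their interval, 34 counts stayed within 1.5 times the main count, and 111 for single genes moved without a change of sign of a called value.

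Each treatment rests on 1 library of 4 pooled mares, so a difference between treatments and a difference between cultures cannot be told apart. RNA levels do not measure enzyme activity, glucose use or lactate. Depth limits the rare genes: *HK2*, *PFKFB3* and *PDK1* had under 1 UMI per thinned cell. No paired analysis was possible because cells were not assigned to their mares here.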

Other observations

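The TCA cycle, which burns the pyruvate that enters the mitochondria, was described by 19 genes, all with a mean of at least 1 CPM. By the counting interval 7 were higher and 11 lower after TGF-β1. The median log2 ratio was -0.058, and none passed 1.5-fold. The succinate dehydrogenase subunit *SDHD* was measured at 48.5 CPM in the control and 37.3 CPM in the TGF-β1 library (-0.38). *IDH2* (111 and 142 CPM, 0.35) and *MDH2* (280 and 343 CPM, 0.29) were higher, and citrate synthase (*CS*), the entry enzyme, was measured at 20.9 and 17.1 CPM (-0.29).

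Of 8 gluconeogenesis genes, 3 had a mean of at least 1 CPM. The mitochondrial *PCK2* was measured at 56.7 CPM in the control and 45.3 CPM in the TGF-β1 library (-0.32), and *G6PC3*, a glucose 6-phosphatase of most tissues, at 30.3 and 33.3 CPM (0.14). *PCK1* was at 0 in both libraries. *ARNT2*, a partner of HIF proteins, was measured at 61.3 and 45.2 CPM (-0.44).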
